A study of Rattus norvegicus with 192 samples.

Results

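Bisphenol A and triclosan are phenols found in plastics and in antibacterial products, and 12 of the 192 libraries of this rat hepatocyte series were made from cells exposed to them. The members were the libraries titled with either name, 6 for bisphenol A and 6 for triclosan. Each compound was given at 0.14, 0.4, 1.2, 3.7, 11.1 and 33.3 µM, with 1 library per dose, all on plate 1. The cells were primary hepatocytes of male rats on a collagen coating, kept with compound or with vehicle for 24 h. The vehicle, dimethyl sulfoxide (DMSO) at 0.1%, is the control named by the labels, and DMSO replicates 2 to 9 served here (8 libraries, 2 of them on plate 1). DMSO replicate 1 stood apart from the other 8 and entered only an alternative. How many rats gave the cells is not given in the sources used here, so a p-value here reflects only how these libraries scatter, and part of that scatter may be technical. In bulk RNA of this kind fewer cells of a type and less RNA per cell cannot be told apart.

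Both compounds carry a phenolic hydroxyl group. In bisphenol A a pair of phenol rings is joined through a carbon bridge, while in triclosan a chlorinated phenol is linked through an ether oxygen to a chlorinated ring. Bisphenol A is a monomer of polycarbonate and epoxy resins and a weak ligand of the oestrogen receptors. Triclosan blocks bacterial fatty acid synthesis at the enoyl reductase step. Hepatocytes clear both by joining the hydroxyl group to glucuronic acid, through UDP-glucuronosyltransferases (the Ugt genes), or to sulfate, through sulfotransferases (the Sult genes). The nuclear receptors CAR and PXR raise many of the genes for this clearance when a foreign chemical binds or activates them, with Cyp2b and Cyp3a genes as their usual readouts. The aryl hydrocarbon receptor (AhR) does the same for Cyp1a1.

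Expression was measured by TempO-Seq, in which pairs of short detector oligos that meet on a target RNA are ligated, amplified and counted, so each value belongs to a probe and not to a whole transcript. A total of 10629 probes passed the filter on low counts. The 12 libraries held 5046236 to 8091625 counts and the 8 DMSO libraries 2876741 to 8513985. Levels below are CPM, counts scaled to a common library total, and fitted changes are log2 values from edgeR with the standard error after the ± sign. A probe is called when its Benjamini-Hochberg adjusted p over all tested probes is below 0.05. Hepatocyte marker probes summed to 28735 to 49588 CPM in DMSO, 27691 to 35868 with bisphenol A and 25033 to 37160 with triclosan. The bile duct markers summed to 25.4 to 54.0 CPM in DMSO, 34.8 to 56.6 with bisphenol A and 41.2 to 54.6 with triclosan, with Krt7 and Cftr at 0 in all 20 libraries. The endothelial markers summed to 10.8 to 19.2 CPM in DMSO, up to 22.0 with bisphenol A and 13.6 to 17.2 with triclosan. The summed macrophage markers overlapped between groups, at 57.7 to 87.3 CPM in DMSO, 66.1 to 87.6 with bisphenol A and 63.4 to 81.3 with triclosan. The summed stellate cell markers were at 10.8 to 15.2 CPM in DMSO, 12.6 to 20.1 with bisphenol A and 15.7 to 23.5 with triclosan, and the part of this difference in the results below was not tested.

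The bisphenol A libraries at 0.4, 3.7, 11.1 and 33.3 µM stood apart, and not in the order of their dose. Over probes with a mean log2 CPM above 4, the median correlation with DMSO was 0.808 at 11.1 µM, 0.920 at 3.7 µM, 0.947 at 0.4 µM and 0.968 at 33.3 µM. It was 0.987 at 0.14 µM and 0.983 at 1.2 µM, and 0.974 to 0.987 in the 6 triclosan libraries. DMSO replicate 5, the shallowest control, also correlated less well with the others, at 0.889. Counts of called probes and of list members for bisphenol A are therefore given also without the 0.4, 3.7 and 11.1 µM libraries, as are the values of the genes the results turn on, an alternative chosen after seeing the data. Only 0.14, 1.2 and 33.3 µM then remain, so such a trend rests mostly on the 33.3 µM library, which itself stood apart. In that setting a dose trend cannot be told apart from a difference of that library alone.

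Each bisphenol A library was first set against DMSO on its own, which compares that library with the controls and not the dose. With 1 library per dose the spread came from the DMSO libraries alone. The lone library was assumed to vary as DMSO does, which was not tested, and the same holds for all single-library results below. At 11.1 µM 1172 probes were called, of which 1112 were lower (10.5%) and 60 higher (0.564%). At 3.7 µM 323 probes were called, 312 of them lower (2.94%) and 11 higher (0.103%). At 0.4 µM 166 were called, 160 of them lower (1.51%) and 6 higher (0.0564%). The library at 33.3 µM, the highest dose, had 8 called probes (0.0753%), all lower. At 0.14 and 1.2 µM edgeR called none, while 152 and 252 probes had an unadjusted p below 0.05. Without DMSO replicate 5 the counts were 562 at 0.4 µM, 717 at 3.7 µM, 1822 at 11.1 µM and 161 at 33.3 µM. The lower probes were largely shared: 304 of the 312 at 3.7 µM (97.4%; 27.3% of the 11.1 µM list), all 160 at 0.4 µM (14.4% of the 11.1 µM list) and all 8 at 33.3 µM were among the 1112. These libraries share the same controls, so the overlap is a description.

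Taken as a set, the 1112 probes had a median log2 difference from the DMSO mean of -2.53 at 11.1 µM, -1.0 at 3.7 µM, -0.80 at 0.4 µM and -0.30 at 33.3 µM. The set was at 0.08 at 0.14 µM and 0.00 at 1.2 µM, so that the highest dose lay nearer to DMSO than 3 lower ones. In triclosan libraries it stayed between -0.01 and 0.18, and in DMSO between -0.29 and 0.10. The set was chosen on the 11.1 µM library, whose value is given for scale. At that dose 129 of the 1112 probes had 0 counts, and the median fitted change was -3.03, or -2.76 with those probes placed at a floor of 3 counts.

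**Figure D1:**
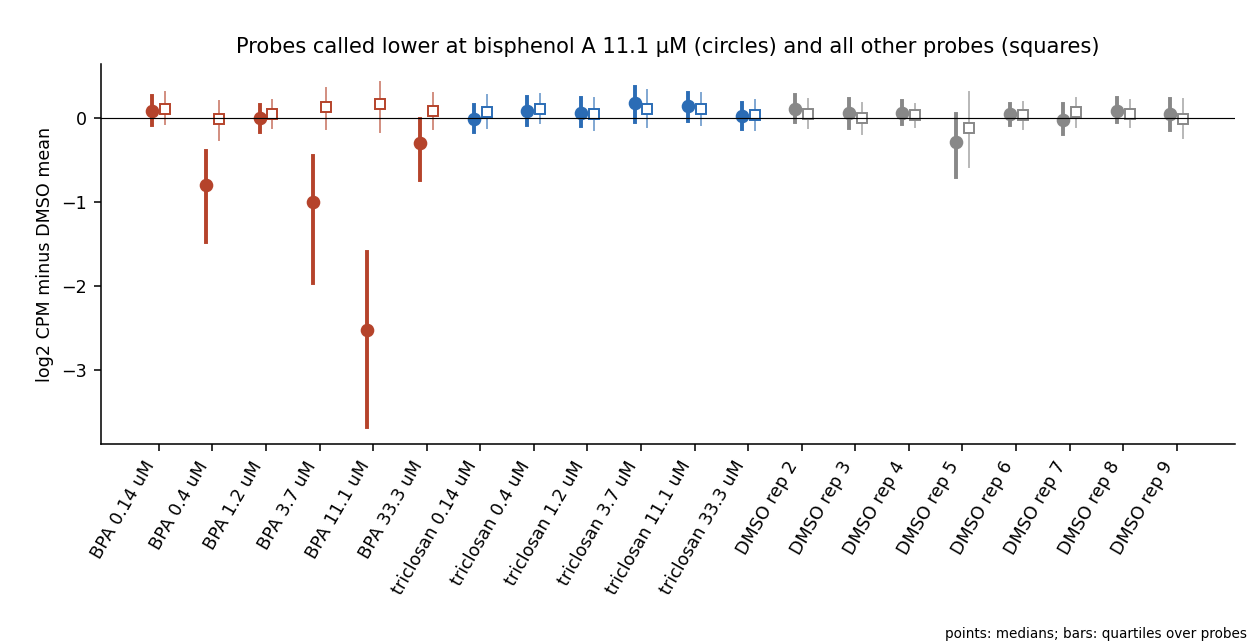
Median log2 CPM minus the DMSO mean (vertical axis) in each of the 20 libraries for the 1112 probes called lower at bisphenol A 11.1 µM (filled circles) and for the other 9517 tested probes (open squares), with bars from the first to the third quartile over probes. The set is low at 0.4, 3.7, 11.1 and, less so, 33.3 µM of bisphenol A, and the other probes stay near 0 in all libraries.

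The 1112 probes had a median DMSO mean of 28.4 CPM (first quartile 9.56), against 17.3 for the other tested probes, and belong to genes of many functions. The 5 probes below are examples that lie above that median in DMSO. Prdx6, a peroxidase of the antioxidant defence, was at 1498, 278, 1517, 118, 31.9 and 852 CPM from the lowest to the highest bisphenol A dose. The DMSO libraries held 1146 to 1763 CPM of Prdx6 (median 1622), so 4 bisphenol A libraries lay below all 8 controls and the other 2 did not. Ugt1a1, the main bilirubin glucuronosyltransferase, was at 178, 21.7, 140, 18.6, 0.998 and 66.2 CPM with bisphenol A. The DMSO libraries held 155 to 285 CPM of Ugt1a1 (median 194) and the triclosan libraries 160 to 218. Nqo1, a quinone reductase, was at 60.8, 8.24, 72.3, 2.58, 0.499 and 31.0 CPM, against 56.4 to 69.9 in DMSO. Cd36, a fatty acid receptor, was at 134, 7.71, 116, 3.37, 1.33 and 35.4 CPM, against 111 to 171 in DMSO. Fdps, which makes farnesyl pyrophosphate for sterols and prenylation, was at 101, 1.31, 67.5, 1.59, 1.50 and 3.89 CPM, against 49.4 to 117 in DMSO. All 5 probes were below every control at 0.4, 3.7, 11.1 and 33.3 µM, and at 0.14 and 1.2 µM they were within the control range or close to it (Ugt1a1 at 1.2 µM lay just below).

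Some probes had 0 counts at 11.1 µM. The floor of 3 counts in that library puts the choline transporter Slc44a1 at least 51.0-fold lower than the DMSO mean and Ugt2b7, another glucuronosyltransferase, at least 49.7-fold lower. The aminopeptidase Rnpep was at least 40.6-fold lower, Derl2, of endoplasmic reticulum protein disposal, at least 36.4-fold, and Upb1, of pyrimidine breakdown, at least 26.5-fold. These bounds cover counting error only. In the 33.3 µM library, Fdps had a fitted change of -4.74 ± 0.58 (adjusted p = 0.0299, edgeR), Ndufa5, a subunit of respiratory complex I, -2.84 ± 0.30 (adjusted p = 0.0151) and Cd36 -1.93 ± 0.22 (adjusted p = 0.0231).

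Where a gene had more than 1 probe, the probes often differed. Of 369 genes with more than 1 tested probe, 71 had a probe called lower at 11.1 µM, and in 6 of them every tested probe was called lower. In 62 of the 71, another probe of the same gene had a fitted change above -1. This count includes Kat7, whose lowest probe was itself above -1 (-0.87), and Ogt, called lower by both probes. In some genes the highest probe was weak, as in Pdhx, at 1.01 CPM in DMSO. The median gap between the highest and lowest probe of a gene was 3.68 log2 units, and 2.87 over the 57 genes whose lowest probe was not at 0 counts. Examples, chosen after their values were seen, show both cases. Arpc2, a subunit of the actin-nucleating Arp2/3 complex, was at 734, 94.8, 745 and 58.5 CPM at the 4 lower doses by its stronger probe, whose DMSO mean was 780, with a fitted change of -6.17 ± 0.25 at 11.1 µM (adjusted p = 2.43e-06). Its other probe was at 53.9 CPM at 11.1 µM against a DMSO mean of 31.6, with 0.62 ± 0.37 (adjusted p = 0.394). Aldoa, the glycolytic aldolase, was at 10.6 CPM against 241 by the first probe and at 359 against 423 by the second. Dnajc3, an endoplasmic reticulum co-chaperone, was at 14.6 CPM against 228 by the first probe and at 42.4 against 35.7 by the second. Elovl1, a very long chain fatty acid elongase, was called lower by both tested probes, with fitted changes of -7.34 ± 0.65 and -6.52 ± 0.89. In the 11.1 µM library a lower value of one probe was thus often not shared by the gene's other probes.

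**Figure D2:**
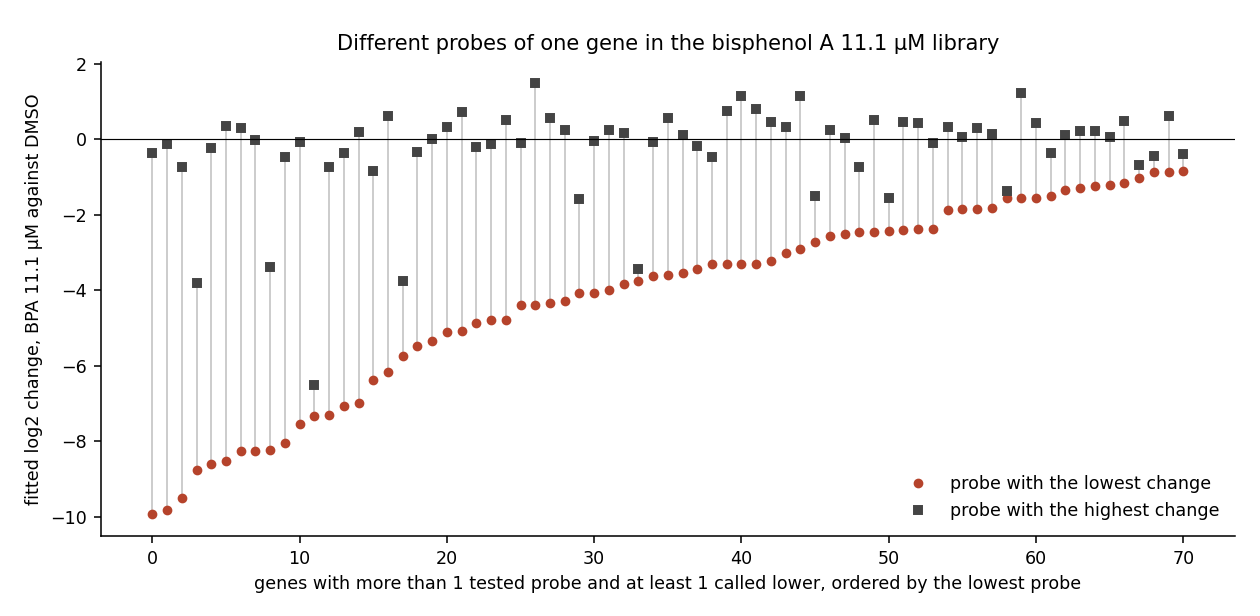
Fitted log2 change in the bisphenol A 11.1 µM library (vertical axis) of the lowest (circles) and highest (squares) tested probe of each of 71 genes, joined by a line and ordered by the lowest probe; values of the 14 lowest probes at 0 counts depend on the fit's prior. In 62 genes the highest probe lies above -1.

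The 151 probes called lower in all of the 0.4, 3.7 and 11.1 µM libraries were also looked at in the rest of the series. The DMSO libraries had a part in choosing these probes, and the libraries of other chemicals and of triclosan did not. The median difference from DMSO was between -0.32 and 0.10 in the controls and between -0.02 and 0.18 with triclosan. It was -1.0 or lower in 18 libraries of 14 other chemicals, at doses from 0.14 to 100 µM. The lowest were cyclanilide at 1.2 µM, with -3.20, bensulide at 3.7 µM, with -2.77, cyclanilide at 33.3 µM, with -2.71, and imazalil at 0.4 µM, with -2.55. Only 4 of those 18 libraries were at the highest dose of their chemical. The pattern of these probes was therefore not particular to the bisphenol A libraries.

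Probes called higher were few but partly shared. Cyp3a2, the male-predominant Cyp3a monooxygenase of rat liver, Fosl1, a subunit of the AP-1 transcription factor, and the metallothionein probe listed as Mt10.7 were called higher in the 0.4, 3.7 and 11.1 µM libraries alike. Cyp3a2 was at 480, 734, 547, 763, 851 and 743 CPM across the bisphenol A doses, against 389 to 516 (median 471) in DMSO, so 5 of 6 libraries exceeded all controls. Its fitted change was 0.88 ± 0.17 at 0.4 µM (adjusted p = 0.0354), 0.79 ± 0.17 at 3.7 µM (adjusted p = 0.0387) and 0.91 ± 0.17 at 11.1 µM (adjusted p = 0.00594). At 33.3 µM it was 0.76 ± 0.17 (adjusted p = 0.173). With triclosan Cyp3a2 was at 465 to 614 CPM, and 2 of 6 libraries exceeded the controls. The metallothionein probe was at 1253 to 1891 CPM with bisphenol A, against 588 to 1608 in DMSO, whose 3 highest values, 1320, 1492 and 1608, were the libraries of plate 3. At 11.1 µM the polycomb ubiquitin ligase Rnf2 (1.81 ± 0.29, adjusted p = 0.00234), the gasdermin Dfna5 (2.44 ± 0.49, adjusted p = 0.00890) and the mitochondrial protein Mgarp (1.92 ± 0.41, adjusted p = 0.0126) were among the 60 higher probes.

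The dose trend used all 6 libraries of a compound, with the change given at 33.3 µM. For bisphenol A 2 of 10629 probes were called (0.0188%), 1 higher and 1 lower (0.00941% each), and 1854 had an unadjusted p below 0.05. Zkscan5, a zinc finger protein of the KRAB and SCAN type, rose with dose, at 26.3, 26.5, 29.1, 39.0, 46.8 and 42.7 CPM. The DMSO range for Zkscan5 was 21.2 to 28.7 CPM, so the 4 highest doses lay above every control. Its fitted change was 0.92 ± 0.13 (adjusted p = 0.00911, edgeR). It was 0.76 ± 0.14 without the 3 libraries (adjusted p = 0.00649) and 0.82 without the 11.1 µM library alone (adjusted p = 0.149), which ends the call. The other 2 tested Zkscan5 probes were not called, at 0.34 ± 0.19 and -0.24 ± 0.42. With triclosan Zkscan5 was at 25.5 to 30.7 CPM, above every control in 3 of 6 libraries, and the difference between the compounds was 0.66 ± 0.15 (adjusted p = 0.110). The unnamed transcript AABR07062466.1 fell by 1.67 ± 0.27 (adjusted p = 0.0274), at 35.2, 21.0, 31.0, 13.3, 11.5 and 13.2 CPM against 25.0 to 38.0 in DMSO. It is one of the 1112 probes. It was called also without the 3 libraries (-1.33 ± 0.25, adjusted p = 0.00894). The call was lost without the libraries at 0.14, 3.7 or 11.1 µM (adjusted p = 0.0763, 0.0839 and 0.336) and without DMSO replicate 2, 3 or 8 (adjusted p = 0.0622, 0.0794 and 0.0529), with fitted changes of -1.68 to -1.54 in these settings except for -1.5 without 11.1 µM. Zkscan5 was also not called with DMSO replicate 1 added (adjusted p = 0.177) or with the plate 1 controls alone (adjusted p = 0.0515).

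The count for bisphenol A moved widely with the libraries used. Without the 33.3 µM libraries 1702 probes were called (15.9%), 302 higher and 1400 lower, and without the 11.1 µM bisphenol A library 0 were called. Without DMSO replicate 5 the count was 115. Without the 0.4, 3.7 and 11.1 µM bisphenol A libraries 109 were called (1.02%), 7 higher and 102 lower. Of those 102, 97 (95.1%) were among the 1112. The 33.3 µM library, on which this trend mostly rests, was itself low in that set. The 7 higher were Zkscan5, Cyp3a2 (0.71 ± 0.15, adjusted p = 0.0238), Tat, the tyrosine aminotransferase (0.82 ± 0.18, adjusted p = 0.0359), Car12, a carbonic anhydrase (1.66 ± 0.39, adjusted p = 0.0498), the zinc finger protein Zfp292 (0.69 ± 0.15, adjusted p = 0.0222), Pik3r3, a regulatory subunit of phosphoinositide 3-kinase (1.23 ± 0.28, adjusted p = 0.0381), and Tcfl5 (2.11 ± 0.44, adjusted p = 0.0233). DESeq2 called 312 probes in the full set of libraries.

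For triclosan no probe was called in the dose trend (0%), by edgeR or DESeq2, and 332 had an unadjusted p below 0.05. In its 6 libraries taken singly edgeR called none either, and 179 to 403 probes per library had an unadjusted p below 0.05. A simulation that put known trends of log2 size 2 into 50 probes for the bisphenol A comparison recovered 39 of them among 10629 probes, and 20 of the 50 of size 1. In that simulation 9 unchanged probes were also called, and no trend was put in for triclosan, so the share that the triclosan fit would recover was not tested. The simulated counts took their spread from the DMSO libraries alone, and no simulated library stood apart as those of bisphenol A did. The share recovered in the real bisphenol A fit is therefore not known either.

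The probes with the smallest p for triclosan were not called. Tbc1d14, a regulator of autophagy, was at 9.56, 8.54, 6.71, 4.42, 2.68 and 3.31 CPM from the lowest to the highest dose, against 3.38 to 9.66 (median 4.63) in DMSO. Its fitted change was -1.64 ± 0.33 (adjusted p = 0.500), and the 4 lower doses lay inside the control range. Pycrl, a proline synthesis reductase, was at 3.62, 5.15, 3.09, 1.59, 1.15 and 1.05 CPM, against 1.75 to 3.48 in DMSO, with -2.20 ± 0.45 (adjusted p = 0.500). Here the 3 highest doses lay below every control, and 2 of the 3 lowest lay above. Tmem134 was at 38.5, 33.5, 34.7, 24.7, 26.4 and 22.4 CPM, against 31.0 to 33.4 in DMSO, and split the doses in the same way.

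At 33.3 µM triclosan several probes were at their highest in the series of doses. Slc16a3, a lactate transporter, was at 13.7, 2.14, 4.02, 1.24, 5.37 and 19.7 CPM, against 1.75 to 17.8 in DMSO. Hmox1, the haem oxygenase, was at 466 to 507 CPM at the 5 lower doses and at 678 at 33.3 µM, against 241 to 595 in DMSO. For Slc16a3 the library at 0.14 µM was the next highest, so the levels did not follow dose. In DMSO the 3 libraries of plate 3 held the 3 highest values of Slc16a3 and Hmox1, and the fit carries a term for plate. Lpl, the lipoprotein lipase, was at 6.32 CPM at 33.3 µM and at 2.07 to 4.06 below it, against 1.96 to 3.60 in DMSO.

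The mean trend of both compounds, which asks what they share, called no probe in edgeR (0%), with 883 at an unadjusted p below 0.05, and 8 in DESeq2. The 2 smallest p belonged to Tbc1d14 (adjusted p = 0.0864) and Fam117b (1.38 ± 0.24, adjusted p = 0.0864). Fam117b was at 11.1, 10.7, 8.26, 12.7, 21.5 and 19.5 CPM with bisphenol A and at 9.56, 5.78, 9.12, 9.01, 11.3 and 25.6 CPM with triclosan, against 5.21 to 9.28 in DMSO. Thus 5 bisphenol A and 3 triclosan libraries exceeded all controls. Without the 33.3 µM libraries the triclosan value of Fam117b was 0.37 in place of 1.27 ± 0.28. Car12 was at 3.39 to 5.04 CPM at the 5 lower triclosan doses and 12.0 at 33.3 µM, and reached 11.7 at 33.3 µM bisphenol A, against 2.09 to 6.76 in DMSO. The triclosan trend of Car12 was 1.20 ± 0.34, and -0.28 without the 33.3 µM libraries. Without the 3 bisphenol A libraries 41 probes were called for the mean trend (0.384%), 4 higher and 37 lower, Fam117b (1.34, adjusted p = 0.0192) and Tbc1d14 (-1.58, adjusted p = 0.0107) among them. Without the 33.3 µM libraries 621 were called (5.82%).

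**Figure D3:**
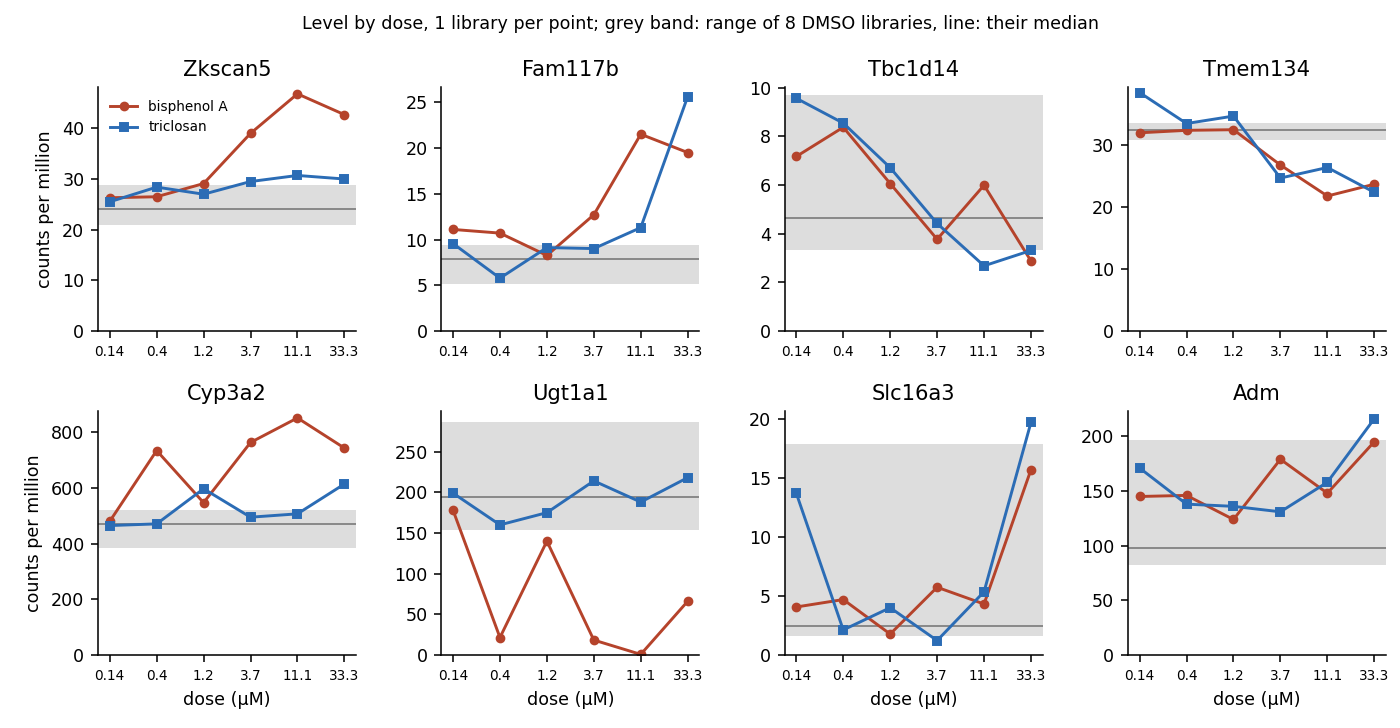
CPM (vertical axes) of 8 probes at the 6 doses of bisphenol A (circles) and triclosan (squares), 1 library per point, with the range (grey band) and median (line) of 8 DMSO libraries. Zkscan5 with bisphenol A leaves the band from 1.2 µM upwards, Ugt1a1 is low at 0.4, 3.7, 11.1 and 33.3 µM of bisphenol A, and Slc16a3 is above the band with triclosan at 33.3 µM alone.

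The compounds were compared as 1 pair, at matched doses, by the difference of their trends (bisphenol A minus triclosan at 33.3 µM). No probe was called in edgeR (0%), with 1526 at an unadjusted p below 0.05, and 103 were called in DESeq2. Without the 3 bisphenol A libraries 66 were called (0.619%), all lower with bisphenol A, led by Fdps (-4.48 ± 0.49, adjusted p = 1.28e-04), Ndufa5 (-2.73 ± 0.29, adjusted p = 1.28e-04) and Ugt1a1 (-1.68 ± 0.20, adjusted p = 4.02e-04). Without the 33.3 µM libraries 1424 were called (13.3%), 201 higher and 1223 lower. For genes that read out receptors the intervals of the difference were wide. They ran from -1.46 to 2.16 for Cyp1a1, from -0.64 to 0.57 for Cyp1a2, from -0.97 to 0.50 for Cyp3a23/3a1 and from 0.13 to 1.16 for Cyp3a2. For Ugt1a1 the interval ran from -4.95 to -0.76 and for the sulfotransferase Sult1a1 from -0.75 to 0.46. Without the 3 libraries the difference was -0.08 ± 0.99 for Cyp1a1, 0.35 ± 0.18 for Cyp3a2 and 0.20 ± 0.29 for Sult1a1. Apart from Ugt1a1 in that setting none of these differences was called, which does not show that the compounds act alike.

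Members of 22 pathway lists were read against these backgrounds. In the bisphenol A trend 6.77% of all probes had a positive and 10.7% a negative fitted change at an unadjusted p below 0.05, in the triclosan trend 1.29% and 1.83%. The median of all probes was -0.03 with bisphenol A and -0.00 with triclosan. No member of any list was called in either trend, so the counts that follow are at the unadjusted p. Without the 3 bisphenol A libraries the shares for bisphenol A were 3.57% positive and 6.25% negative, with a median of -0.01.

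Phenol conjugation was the list closest to the compounds' own fate. With bisphenol A 5 of its 20 tested members were lower and 2 higher, with a median of -0.35. Of the 20, 9 were among the 1112 probes (10.5% of all tested), including Ugt1a1, Ugt2b7, Ugt2b37, Sult1a1 and the canalicular export pump Abcc2. With the 3 libraries left out 3 of 21 were lower and 0 higher at the unadjusted p, with a median of -0.10, and 2 of them were called lower. With triclosan 0 of 20 members were higher or lower at that p, and the median was 0.12. The triclosan errors were wide for members among the 1112 probes, with 0.66 ± 0.84 for Ugt1a1 and -0.02 ± 0.82 for Ugt2b7. For such members a count of 0 cannot show that triclosan left them unchanged. Ugt2b10 was at 209, 201, 246, 254, 264 and 369 CPM over the triclosan doses, against 190 to 348 in DMSO, with a fitted change of 0.41 ± 0.23. Sult1a1 was at 431 to 511 CPM with triclosan and 311 to 550 with bisphenol A, against 460 to 809 in DMSO, so 4 libraries of each compound lay below all controls.

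Targets of CAR and PXR differed by probe with bisphenol A, and 5 of the 16 tested (Cyp3a1, Gsta2, Slco1a4, Ugt1a1 and Ugt2b1) were among the 1112 probes. With triclosan 0 of 16 members were higher or lower, with a median of 0.06. With bisphenol A 1 was higher, Cyp3a2 (0.81 ± 0.21), and 2 were lower, Ugt1a1 and the transporter Slco1a4, with a median of -0.14. With those libraries left out 2 were higher and 1 lower, with a median of 0.10, and Cyp3a2 was called higher and Ugt1a1 lower. Cyp3a23/3a1 was at 15.3 to 23.9 CPM with bisphenol A and 11.6 to 24.2 with triclosan, against 13.2 to 30.4 in DMSO. Cyp2b2 was at 0.371 to 0.915 CPM with bisphenol A, 0.767 to 3.16 with triclosan and 0.695 to 3.26 in DMSO, and 4 bisphenol A libraries lay below all controls. All its bisphenol A levels were under the 1.58 CPM used to filter probes, and so rest on few counts. Its fitted change was -1.88 ± 0.95 with bisphenol A, and -1.45 ± 1.14 without the 3 libraries. The AhR target Cyp1a1 was at 1.98, 0.784, 0.689, 2.38, 4.49 and 4.23 CPM with bisphenol A. With triclosan Cyp1a1 was at 2.46, 0, 0.805, 0.706, 0.575 and 6.92 CPM, against 0 to 3.40 in DMSO. The 2 highest bisphenol A doses and the highest triclosan dose were above the controls. Fitted changes were 2.59 ± 0.81 and 2.24 ± 0.75 (adjusted p = 0.124 and 1), and 2.22 ± 0.93 with bisphenol A without the 3 libraries, while Cyp1a2, which shares the receptor, was at 62.1 to 85.2 CPM with either compound, inside the DMSO range of 29.5 to 87.2.

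Oestrogen-responsive genes gave no common direction. Of 7 tested members, 1 was higher and 3 lower with bisphenol A and 1 higher and 1 lower with triclosan. Of the 7, 2 (Myc and Xbp1) were among the 1112 probes (10.5% of all tested), and both were among the 3 lower with bisphenol A. Without the 3 libraries 0 were higher and 1 lower with bisphenol A, with a median of -0.32. Greb1 and Pgr, the classic oestrogen receptor targets, were at or near 0 in DMSO (highest 0.189 and 0.752 CPM), and Greb1 was at 0 in all 6 bisphenol A libraries. Esr1, the oestrogen receptor itself, reached 23.2 CPM at most with bisphenol A and was at 13.4 to 17.1 with triclosan, against 12.0 to 25.7 in DMSO. Ccnd1, the cyclin D1 gene, had fitted changes of -1.24 ± 0.34 with bisphenol A (-1.19 ± 0.42 without the 3 libraries) and -0.78 ± 0.33 with triclosan. It was at 3.56 CPM at 33.3 µM bisphenol A and 3.61 at 33.3 µM triclosan, against 4.54 to 10.2 in DMSO. The library of 17beta-estradiol, 1 library at 10 µM on plate 3, differs in dose and plate and was not compared. It held 9.26 CPM of Ccnd1, 27.4 of Esr1 and 0 of Greb1 and Pgr. In that library 1 of 10023 probes was called against DMSO (0.00998%), Pck1, the gluconeogenic carboxykinase, with 2.61 ± 0.27 (adjusted p = 0.0299). Pck1 was at 28.7 CPM there, at 0.832 to 7.11 with bisphenol A and at 3.64 to 9.33 with triclosan, against 3.59 to 5.40 in DMSO.

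Thyroid hormone targets gave no common direction. Thrsp was at 70.1 to 103 CPM with bisphenol A and 56.4 to 113 with triclosan, against 21.9 to 138 in DMSO. The lower end is DMSO replicate 5, the other 7 held 61.3 CPM or more, and the lowest triclosan library lay below those 7. Dio1, the liver deiodinase, was at 45.6 to 67.0 and 45.1 to 53.1 CPM, against 42.0 to 72.3. Of 5 tested members 1 was higher (Klf9, 0.65 ± 0.22) and 1 lower (Me1, -0.87 ± 0.26) with bisphenol A, and 0 with triclosan. Without the 3 libraries the same 2 genes passed, with Klf9 at 0.61 ± 0.25 and Me1 at -0.80 ± 0.30.

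Fatty acid synthesis genes had the lowest median of the 22 lists for bisphenol A, at -0.76, with 8 of 14 members lower and 1 higher. With the 3 libraries left out 6 of 14 were lower and 0 higher, with a median of -0.69. Acly, which makes cytosolic acetyl-CoA, was at 561, 329, 488, 330, 192 and 302 CPM, against 528 to 699 in DMSO, so 5 of 6 libraries lay below all controls. Its fitted change was -1.19 ± 0.25 (adjusted p = 0.0550), and -0.88 ± 0.20 without the 3 libraries (adjusted p = 0.0456). Dgat2, of triglyceride synthesis, was at 50.4, 39.4, 55.0, 33.7, 31.8 and 32.3 CPM, against 40.7 to 55.7 in DMSO. Fasn, the fatty acid synthase, was at 63.4, 30.3, 47.7, 37.1, 42.9 and 30.0 CPM, against 26.4 to 70.7 in DMSO, whose other 7 libraries held 44.7 CPM or more without replicate 5. Of the 6 libraries 4 lay below those 7, and the fitted change was -0.91 ± 0.31 (adjusted p = 0.146), or -1.02 ± 0.33 without the 3 libraries (adjusted p = 0.220). Of the 14, 4 (Acly, Dgat2, Elovl6 and Srebf1) were among the 1112 probes. With triclosan 0 of 14 were lower and 1 higher, with a median of -0.13, and Acly was at 429 to 545 CPM, with 4 of 6 libraries below all controls. The 17beta-estradiol library, at another dose and on another plate, held 236 CPM of Acly and 23.8 of Fasn, and was not compared with the phenols.

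Cholesterol synthesis differed by probe. With bisphenol A 6 of 21 members were lower and 0 higher, with a median of -0.30. The list ran down to Fdps at -6.21 ± 1.26. Leaving out the 3 libraries, 4 were lower and 0 higher, with a median of -0.29, and Fdps was at -4.68 ± 0.49 (adjusted p = 8.47e-05). With triclosan 0 of 21 were higher or lower.

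None of the 14 tested glycolysis and hypoxia genes was among the 1112 probes, which were 10.5% of all tested. With bisphenol A 4 were higher and 0 lower, with a median of 0.27, and without the 3 libraries 5 were higher and 0 lower, with a median of 0.31. With triclosan 3 were higher and 0 lower, with a median of 0.52. Adm, the vasodilator peptide adrenomedullin, was at 145, 146, 124, 179, 148 and 195 CPM with bisphenol A and at 171, 138, 136, 131, 158 and 216 with triclosan. The DMSO range of Adm was 82.9 to 196 CPM, and the libraries of plate 3 held its 3 highest values, 161, 170 and 196. Pdk1, a kinase that inhibits pyruvate dehydrogenase, was at 255, 279, 182, 354, 407 and 369 CPM with bisphenol A and at 268, 170, 227, 211, 267 and 450 with triclosan, against 165 to 412 in DMSO. The glycolytic regulator Pfkfb3 had a fitted change of 0.85 with each compound (± 0.32 with bisphenol A, ± 0.30 with triclosan). The difference between compounds was 0.23 ± 0.30 for Pdk1 and -0.03 ± 0.27 for Adm. Only the 33.3 µM triclosan library exceeded all controls for Adm, Pdk1 and Pfkfb3.

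**Figure D4:**
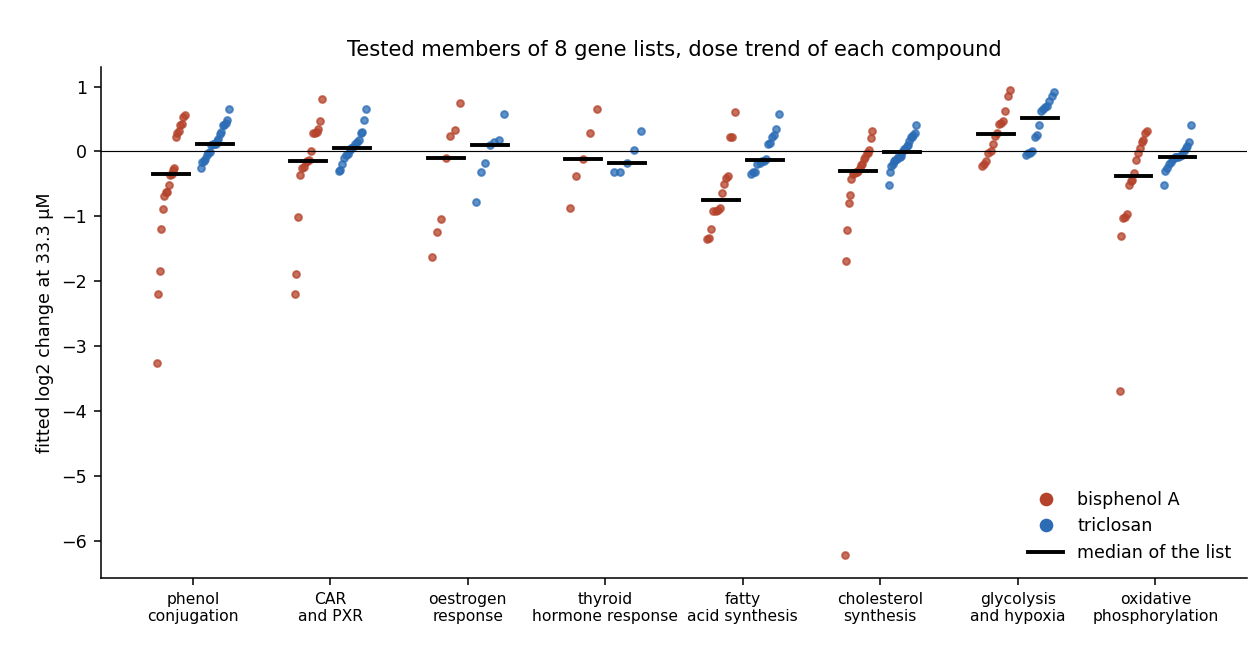
Fitted log2 change at 33.3 µM (vertical axis) of each tested member of 8 gene lists for bisphenol A and triclosan, with the list median as a bar. The bisphenol A members reach to -6.21 (Fdps), the triclosan members of these lists stay between -0.78 and 0.91, and the AhR list is not drawn.

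Stress pathways had few members past the unadjusted p with triclosan. In the triclosan trend the integrated stress response had 1 of 19 members higher (Vldlr, 0.86 ± 0.29), the unfolded protein response 0 of 13, the NRF2 list 2 of 21 (Hmox1, 0.55 ± 0.24, and Gclc, 0.44 ± 0.17) and the PPARa list 0 of 28, and in these 4 lists 0 members were lower. With bisphenol A 5 of 19, 3 of 13, 5 of 21 and 8 of 28 members were lower and 2, 1, 0 and 1 higher. In the same lists 1, 4, 4 and 6 members were among the 1112 probes, which were 10.5% of all tested. Higher members of the stress response lists were the lipoprotein receptor Vldlr (0.95 ± 0.31), the phosphatase subunit Ppp1r15a (0.56 ± 0.18) and Herpud1 (0.57 ± 0.22), of endoplasmic reticulum protein disposal. Without the 3 libraries 5, 1, 4 and 5 were lower and 2, 0, 1 and 0 higher. Fgf21, a hepatokine on the stress and PPARa lists, was at 16.3 to 28.4 CPM with bisphenol A and 19.6 to 26.2 with triclosan, against 26.7 to 42.8 in DMSO. All 6 triclosan and 5 of 6 bisphenol A libraries lay below every control, the lowest dose included, and fitted changes were -0.75 ± 0.24 with bisphenol A (adjusted p = 0.136; -0.71 ± 0.29 without the 3 libraries) and -0.47 ± 0.23 with triclosan (adjusted p = 1). Oxidative phosphorylation had 6 of 16 members lower with bisphenol A, with 6 of the 16 among the 1112 probes, and 3 lower without the 3 libraries. With triclosan 0 of 16 were higher or lower.

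Both compounds were last set against the mean trend of 11 other chemicals given at the same 6 doses on plate 1. These share the controls and plate with the compounds. Bisphenol A differed from that mean at 979 of 11193 probes (8.75%), 225 higher (2.01%) and 754 lower (6.74%), and 624 of the 754 (82.8%) were among the 1112. Without the 0.4, 3.7 and 11.1 µM bisphenol A libraries edgeR called 0 probes, while 468 had an unadjusted p below 0.05. Triclosan differed at 0 probes (0%), while 691 had an unadjusted p below 0.05. For triclosan 4 were called, all lower, without those 3 libraries (0.0357%) and 2 without the 33.3 µM libraries (0.0180%).

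Genes of the CAR and PXR and conjugation lists were among the 10 smallest p of each contrast, and had lower trends than with the other chemicals. Ugt2b1 differed by -2.26 ± 0.39 for bisphenol A (adjusted p = 4.72e-04) and by -1.59 ± 0.37 for triclosan (adjusted p = 0.0952). Ugt2b10 differed by -2.22 ± 0.38 (adjusted p = 4.72e-04) and -1.56 ± 0.37 (adjusted p = 0.0952). For Cyp3a23/3a1, outside the first 10 for bisphenol A, the differences were -1.70 ± 0.35 (adjusted p = 0.00189) and -1.45 ± 0.34 (adjusted p = 0.0952), and for the glutathione transferase Gsta2 -1.55 ± 0.28 (adjusted p = 8.14e-04) and -1.23 ± 0.28 (adjusted p = 0.0952). In the dose trends against DMSO the same 4 genes were between -0.36 and -0.17 with bisphenol A and between 0.05 and 0.41 with triclosan. The CAR and PXR list had 7 of 17 members called lower for bisphenol A and 0 for triclosan, and that difference between the compounds was not tested. Over all probes 6.74% were called lower for bisphenol A. Cyp3a1, Gsta2, Slco1a4, Ugt1a1 and Ugt2b1 of this list were among the 1112 probes. Without the 3 bisphenol A libraries 0 probes were called in this contrast, so none of the bisphenol A calls above held. Among probes called higher for bisphenol A were the interferon-induced genes Ifit1 (2.08 ± 0.66, adjusted p = 0.0352) and Oas1b (1.33 ± 0.43, adjusted p = 0.0365). Oas1b was at 28.4, 36.0, 35.1, 93.9, 83.4 and 34.7 CPM across the bisphenol A doses, against 28.7 to 54.3 in DMSO, so 2 libraries, both among the 3 left out above, lay above the controls. The other 2 tested Oas1b probes were not called, at 0.45 ± 0.43 and -0.56 ± 0.49. In the dose trend against DMSO, Ifit1 was at 0.44 ± 0.69 and the Oas1b probe called here at 0.44 ± 0.41. Other interferon-induced genes were lower in that trend, Usp18 at -1.49 ± 0.38, Ifit3 at -1.47 ± 1.22 and Isg15 at -0.14 ± 0.50. None of these genes was called in that trend, so no common interferon direction was seen.

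Fitted each alone with DMSO, neither phenol had a called probe in edgeR, and 1031 probes for bisphenol A and 305 for triclosan had an unadjusted p below 0.05. In the same analysis dithiopyr had 1449 called probes and imazalil 1158, the next, ametryn, had 78, and acetochlor and etoxazole had 0.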

How the data were processed

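The authors deposited a table of raw counts per TempO-Seq probe for 192 libraries and 22253 probes; alignment used Bowtie, per the submitters' processing notes, and its version and the genome build are not given in the sources used here. The labels speak of a log2 step between doses, while the doses they list step about 3.00-fold, and the listed doses were used. Groups were taken from the labels.

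From the counts, probes with at least 10 counts at median depth (1.58 CPM) in at least 3 of 20 libraries were kept. edgeR 4.0.16 (TMM, quasi-likelihood F test, in R 4.3.3) fitted plate and, per compound, a dose score of log2(1 + dose), and p-values were adjusted by Benjamini-Hochberg over all tested probes. Single libraries were set against DMSO, and 86 libraries entered the contrast with the other chemicals. limma 3.58.1 was loaded with edgeR. Per-library log2 CPM used a prior count of 2. Alternatives were DESeq2 1.42.0, its size factors, other filters, dose scores, control sets and left-out libraries. The script was tested on simulated data. No columns were identical, and the lowest chi-square per degree of freedom between libraries was 3.17.

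Symbols are those of the table. In lists each gene was represented by its most abundant probe. Named genes were up to 10 called probes in each direction per contrast, or the 10 with the smallest p, up to 5 per direction in the 11.1 and 33.3 µM libraries, up to 4 per list and compound, and a fixed panel; further names (Prdx6, Cd36, Arpc2, Aldoa, Dnajc3, Elovl1, Elovl6, Srebf1, Slc16a3, Mt10.7, Fosl1 and the probes called without the 3 libraries) were chosen after their values were seen. A few results are not reported here. Members and lists were chosen with earlier results of these data known.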

Additional observations from a re-analysis of the deposited data

Results flagged for a closer look

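Among 26 panel genes tested for a control library far from the other 7, 5 had a gap above Dixon's 95% critical value for 8 values, where chance alone gives about 1 in 20. DMSO replicate 5 was lowest for Cyp1a2 (29.5 CPM, the others 54.1 to 87.2), Thrsp (21.9 CPM, the others 61.3 to 138) and Fasn (26.4 CPM, the others 44.7 to 70.7). Greb1 was at 0.189 CPM in DMSO replicate 9 and Cyp7a1 at 0.117 CPM in DMSO replicate 7, with 0 in the other 7. With 7 values at 0 any count in the remaining library is flagged, so the 1 in 20 rate does not apply to Greb1 and Cyp7a1.

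Bisphenol A differed from the 11 other chemicals by a test of the difference itself at 979 probes, and at 0 without its 0.4, 3.7 and 11.1 µM libraries.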

How the results depend on the processing

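No paired analysis was possible because each dose had 1 library and the DMSO numbers pair with none. No called value changed sign, while some uncalled ones did (Car12 with triclosan, 1.20 and -0.28 without 33.3 µM). Without the 3 bisphenol A libraries, 41 probes were called for the mean trend, 109 for bisphenol A, 66 for the difference, 4 for triclosan and 0 for bisphenol A against other chemicals; with those 3 doses left out for both compounds the counts were 63 for bisphenol A, 7 for the mean and 27 for the difference; without the bisphenol A 11.1 µM library alone they were 0 for bisphenol A and 1 for the mean. These 3 settings were chosen after seeing the data.

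The bisphenol A trend (2 called) gave 312 with DESeq2, 47 without a filter, 315 without the plate term, 0 with DMSO replicate 1, with plate 1 controls alone or with the compound alone, 119 by dose rank and 200 with the library score as a covariate. Leaving out the libraries of a dose gave 124 (0.4 µM), 8 (1.2 µM), 1 (3.7 µM), 0 (11.1 µM) and 1702 (33.3 µM). The mean trend (0) gave 8 with DESeq2 and with the library score, 3 without the plate term, 2 by any exposure and 621 without 33.3 µM. The difference (0) gave 103 with DESeq2, 20 without a filter, 19 without the plate term, 36 by rank, 1 with the library score, 31, 7 and 1424 without 0.4, 1.2 and 33.3 µM. The triclosan trend (0) gave 1 by any exposure. Against other chemicals, triclosan (0) gave 199 without a filter, 12 with the library score and 2 without 33.3 µM, and bisphenol A (979) gave 443 with DMSO replicate 1, 1928 with the library score and 1954 without 33.3 µM. With DMSO replicate 1 the bisphenol A libraries gave 524 at 11.1 µM, 38 at 3.7 µM, 11 at 0.4 µM and 0 at 33.3 µM, and the 17beta-estradiol library 0; without the plate term the 33.3 µM library gave 36 and 17beta-estradiol 2. The cause was not tested.

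Leaving out each DMSO library gave 1 to 115 called probes for the bisphenol A trend, 0 to 1 for the mean, 0 to 2 for the difference, 0 to 161, 866 to 1822, 182 to 717 and 91 to 562 for bisphenol A at 33.3, 11.1, 3.7 and 0.4 µM, 0 to 1 at 0.14 µM, 0 to 10 and 0 to 3 for triclosan at 33.3 and 0.14 µM, 954 to 1017 for bisphenol A against other chemicals and 0 to 15 for 17beta-estradiol. The highest of each, except the mean trend and the contrast with other chemicals, came without DMSO replicate 5.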
